A study of Mus musculus with 12 samples.

Results

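Serum response factor (SRF) and its actin cytoskeleton targets are described here as 10 genes chosen by name, out of 33560 mouse genes with counts: Srf itself, Acta2, Tagln, Cnn1, Cnn2, Vcl, Actb, Actg1, Tpm1 and Tpm2. The rule names the genes and applies no measured value, although earlier results of these data were known when it was made, and all 10 genes passed the filter on low counts. They were followed in 12 RNA-seq libraries of glutamatergic neurons that were differentiated in vitro from mouse embryonic stem cells and taken at day 21 of culture (DIV21). The cells are wild-type (Daam1-MIC_WT, here WT) or carry a deletion of a microexon of Daam1 (Daam1-MIC_KO, here KO). Daam1 is a formin, a protein that nucleates and elongates actin filaments. Each genotype has 3 labelled cell lines, and each line gave 1 library after 2 h in water as vehicle and 1 library after 2 h in 10 µM Y-27632, a ROCK inhibitor per the labels. This makes 4 groups of 3 libraries: WT vehicle, KO vehicle, WT inhibitor and KO inhibitor. The labels do not say whether the lines of a genotype are separate clones, so the p-values speak only of these lines. In comparisons of the 4 groups, they measure the spread between libraries of a group, estimated over all 4 groups together. Each line therefore enters that spread under both treatments, and libraries outside a comparison also shape its p-values. The series text mentions hippocampus of adult mice, but the labels of all 12 samples name cultured neurons, and the groups follow these labels.

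SRF is a transcription factor that binds DNA at the CArG box. Its best-known cofactors, the myocardin-related transcription factors, are held back by monomeric actin and are released when actin polymerizes, so SRF activity reads the state of the actin cytoskeleton. Among its targets are actins and actin-binding proteins, some made in most cells (Actb, Actg1, Vcl) and some characteristic of smooth muscle and other contractile cells (Acta2, Tagln, Cnn1), while in neurons SRF is known for its part in neurite growth and activity-dependent transcription.

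The DNA these genes present to SRF is shown for the members whose RefSeq promoter (GRCm38.p6, 250 bases before to 50 after the start site) holds a CArG box, written 2 C, 6 A or T and 2 G. An exact box was found in 4 of the 8 members with a promoter entry, Srf, Cnn2, Vcl and Actg1, and in 1.63% of 32851 RefSeq promoters. With 1 letter allowed to differ, 6 of the 8 held a match, Acta2 and Tpm1 in addition, against 21.1% of promoters. The windows below run 5′ to 3′ on the gene's strand with the matches in capitals. In Srf the first and second matches are exact and the third is 1 letter off, and the single matches of Acta2 and Tpm1 shown are 1 letter off.
Srf, chr17:46556190-46556269, minus strand: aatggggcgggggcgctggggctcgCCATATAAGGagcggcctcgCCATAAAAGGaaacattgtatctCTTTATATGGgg
Acta2, chr19:34255438-34255467, minus strand: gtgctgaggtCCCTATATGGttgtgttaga
Cnn2, chr10:79988519-79988578, plus strand: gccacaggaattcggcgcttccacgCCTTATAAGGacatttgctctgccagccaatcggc
Vcl, chr14:20929148-20929205, plus strand: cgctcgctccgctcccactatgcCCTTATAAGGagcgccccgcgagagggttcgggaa
Actg1, chr11:120348551-120348610, minus strand: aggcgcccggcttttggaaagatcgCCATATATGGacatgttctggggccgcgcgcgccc
Tpm1, chr9:67049415-67049444, minus strand: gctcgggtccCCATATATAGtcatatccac

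The exact boxes of Srf begin 82 and 62 bases before the start site, that of Cnn2 56, that of Actg1 90 and that of Vcl 227 bases before it. Both matches of Acta2, at 84 and 34 bases, and the second of Tpm1, at 80 bases, lie in an exon of the GENCODE M21 annotation, and the other matches lie outside the gene's annotated exons. The windows of Cnn1 and Tpm2 held no match, which says only that these letters are not in this window. Tagln and Actb are named without a sequence. A match of letters is a description and not a measured binding site.

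**Figure D1:**
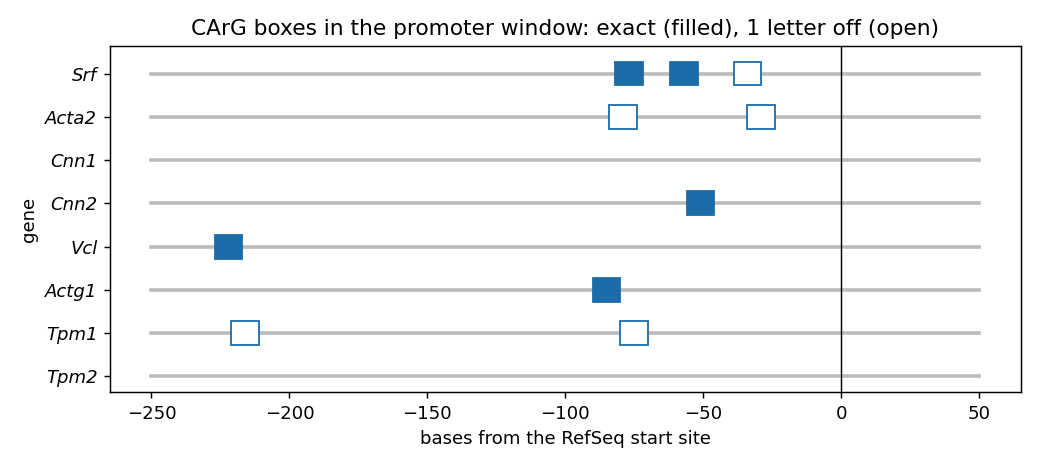
CArG boxes in the promoter window of the 8 members with a RefSeq entry. The horizontal axis is the distance in bases from the start site, filled boxes are exact matches and open boxes are 1 letter off. Srf has 2 exact boxes within 82 bases of the start, while the exact box of Vcl begins 227 bases before it.

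The libraries held 23253566 to 35012561 counts. Levels per library are given as CPM, each count divided by its library's TMM-adjusted total and put on a shared scale, and levels compared between genes as cRPKM, the authors' reads per length and library size. Daam1, whose gene count does not report a microexon and so does not check the labels, ranged from 67.9 to 188 CPM. Marker genes showed neurons in every library, with a summed level of 10 markers listed as glutamatergic of 3007 to 4564 CPM, except in KO inhibitor line 3 at 918 CPM. That list includes genes of neurons in general (Snap25, Tubb3, Map2, Syt1, Grin1 and Rbfox3), so its sum does not compare glutamatergic with GABAergic cells. In WT vehicle line 1, Snap25 gave 1078 and Slc17a6 280 of the 3618 CPM. Of the 10 markers, the cortical and hippocampal genes Slc17a7, Neurod6 and Tbr1 stayed at or below 2.07 CPM, while Slc17a6 reached 424 CPM, and 5 GABAergic markers summed to 211 to 649 CPM. On the first principal component, which held 74.3% of the variance, 3 libraries stood apart at the high end. They were KO inhibitor line 3 at 163, WT vehicle line 2 at 68.1 and WT inhibitor line 3 at 60.3, with the others between -73.8 and 1.41. At the low end, KO inhibitor line 2 (-73.8) and KO vehicle line 2 (-71.4) lay further from 0 than WT vehicle line 2, with KO vehicle line 3 (-61.8) near them. Of 9 mesenchymal markers, WT vehicle line 2 and WT inhibitor line 3 had the highest sums (1274 and 855 CPM), and KO inhibitor line 3 had 587 CPM, of which Pdgfra alone gave 509 CPM. The other 8, collagens and Dcn among them, summed to 1122, 755 and 77.0 CPM in these libraries and to 34.4 to 378 CPM elsewhere. All 3 libraries had the highest sums of 8 smooth muscle and pericyte markers (62.8 CPM in KO inhibitor line 3, 56.9 in WT vehicle line 2 and 41.5 in WT inhibitor line 3, against at most 15.4 elsewhere). That list holds no member but includes 3 of the further SRF targets (Myh11, Lmod1 and Smtn). The other 5 markers summed to 24.2, 31.2 and 23.5 CPM, against at most 10.3 elsewhere. Of these sums Notch3 alone gave 21.8, 24.6 and 18.4 CPM. Cspg4 was also highest in these libraries (0.922, 1.95 and 1.42 CPM, against at most 0.690 elsewhere). Des (0.668, 3.54 and 1.69 CPM), Rgs5 (0.763, 1.17 and 1.95 CPM) and Kcnmb1 (at most 0.0986 CPM in any library) did not follow in all of them. In KO inhibitor line 3 the sum of all 8 was mostly Smtn (37.9 CPM) and Notch3, while Myh11 was at its lowest (0.0636 CPM). KO inhibitor line 3 also had 1189 CPM of 6 astrocyte markers and 237 CPM of 5 progenitor markers. No marker list had a gene at 0 in every library. The part of these cells in the members' values was not tested, and in bulk RNA fewer cells of a type and less RNA per cell cannot be told apart. The results that rest on the 3 libraries are given below with and without them.

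Per gene length, the cytoplasmic actins were far above the rest of the set. In WT vehicle, Actg1 (γ-actin) had 1199 ± 228 cRPKM (SD, n = 3) and Actb (β-actin) 572 ± 111 cRPKM, followed by Tpm1 (tropomyosin 1) at 58.4 ± 17.8 cRPKM. The libraries of these 3 genes did not overlap with those of the next gene down. From Cnn2 on, neighbours in the order overlapped: Cnn2 had 14.3 ± 15.2, Acta2 12.8 ± 16.8, Vcl 11.5 ± 7.31, Tagln 11.4 ± 13.6, Srf 7.64 ± 2.12, Tpm2 3.71 ± 3.93 and Cnn1 0.727 ± 0.0153 cRPKM. The SD of Cnn2, Acta2, Tagln and Tpm2 exceeded their mean, so these libraries do not fix the order among them. Of the summed cRPKM of the 6 actin genes, Actg1 held 66.4% to 69.6% and Actb 30.2% to 32.5% in every library. The smooth muscle actin Acta2 held 0.0292% to 1.45%. Actb and Actg1 have nearly the same coding sequence and many processed pseudogenes, so the division of reads between them is uncertain.

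Srf itself varied little. Its gene lies on chromosome 17 (46548329 to 46556175, GRCm38), with a long noncoding RNA, Gm26904, on the opposite strand. In lines 1 to 3, Srf stood at 27.2, 41.9 and 23.8 CPM in WT vehicle and at 29.9, 25.8 and 25.6 CPM in KO vehicle. With inhibitor it stood at 23.6, 24.5 and 27.9 CPM in WT and at 27.8, 24.5 and 31.2 CPM in KO. WT vehicle line 2 was the highest, KO inhibitor line 3 the second, and the 4 groups overlapped. The highest library was 1.77 times the lowest.

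The cytoplasmic actins were steadier still. Actb (chromosome 5, 142903115 to 142906754) was measured at 522, 758 and 521 CPM in WT vehicle, 512, 499 and 503 in KO vehicle, 533, 551 and 546 in WT inhibitor and 552, 496 and 686 in KO inhibitor. The KO vehicle libraries lay below all WT vehicle libraries, with the nearest at 512 and 521 CPM, and WT vehicle line 2 was far above the other libraries of its group. Actg1 (chromosome 11, 120345690 to 120348542) was measured at 1743, 2554 and 1799 CPM in WT vehicle and 1767, 1700 and 1870 in KO vehicle. With inhibitor it was at 1864, 1911 and 1859 CPM in WT and 1978, 1813 and 2266 in KO. The highest libraries of both genes were WT vehicle line 2 and KO inhibitor line 3, and the highest was 1.53 times the lowest for Actb and 1.50 times for Actg1.

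The genes of contractile cells spread over a much wider range. Acta2 (chromosome 19, 34241090 to 34255590) stood at 8.95, 55.9 and 1.57 CPM in WT vehicle, 2.23, 0.736 and 4.78 in KO vehicle, 10.1, 7.83 and 21.4 in WT inhibitor and 4.25, 1.53 and 20.6 in KO inhibitor. The 3 highest libraries were those that stood apart, and the highest was 76.0 times the lowest. Tagln (transgelin or SM22α, an actin-bundling protein of smooth muscle; chromosome 9, 45929619 to 45936058) stood at 8.77, 42.9 and 2.09 CPM in WT vehicle, 1.83, 0.779 and 3.33 in KO vehicle, 9.24, 9.55 and 19.6 in WT inhibitor and 3.41, 1.04 and 31.9 in KO inhibitor. It followed Acta2 closely, with a 55.1-fold range and a Spearman rho of 0.96 with Acta2 over the 12 libraries. Tagln overlaps Pcsk7 and Gm48529 on the opposite strand, and since the sources used here do not say whether counting used the strand, reads of these genes cannot be told apart with certainty.

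The calponins, which bind actin filaments and damp myosin activity, behaved unlike each other. Cnn2 (chromosome 10, 79988584 to 79996062), the broadly expressed form, stood at 16.3, 79.3 and 10.1 CPM in WT vehicle, 19.2, 11.9 and 13.5 in KO vehicle, 17.0, 17.4 and 48.5 in WT inhibitor and 25.1, 13.4 and 161 in KO inhibitor. KO inhibitor line 3 was the highest and 15.9 times the lowest. Cnn1 (chromosome 9, 22099216 to 22109630), the smooth muscle form, was low in every library: 1.62, 1.79 and 1.66 CPM in WT vehicle, 1.94, 2.16 and 1.73 in KO vehicle, 1.48, 1.24 and 1.16 in WT inhibitor and 1.63, 1.62 and 1.56 in KO inhibitor. It was the member that did not follow the 3 libraries: its highest value was in KO vehicle line 2, its range was 1.87-fold, and its rho with the other members ran from -0.56 to 0.20. All other pairs of members had a rho between 0.34 and 0.96, over libraries that share their groups.

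Vcl and the tropomyosins lay between these extremes. Vcl (vinculin, which links actin to adhesion sites; chromosome 14, 20929398 to 21033676, overlapping Ap3m1 on the opposite strand) stood at 40.3, 106 and 33.4 CPM in WT vehicle, 40.3, 30.9 and 38.6 in KO vehicle, 40.6, 38.0 and 66.7 in WT inhibitor and 42.0, 38.5 and 109 in KO inhibitor. The 3 libraries that stood apart were again the highest. Tpm1 (chromosome 9, 67022590 to 67049406), which stabilizes actin filaments, was at 93.8, 150 and 81.3 CPM in WT vehicle, 91.5, 77.9 and 73.8 in KO vehicle, 98.5, 99.7 and 137 in WT inhibitor and 91.8, 65.9 and 351 in KO inhibitor. Its KO inhibitor line 3 value was 3.79 times the median library. Tpm2 (chromosome 4, 43514711 to 43523765), a tropomyosin mostly of muscle, was low at 2.44, 9.39 and 0.783 CPM in WT vehicle, 0.988, 1.34 and 1.73 in KO vehicle, 2.76, 3.07 and 5.49 in WT inhibitor and 1.38, 1.33 and 3.24 in KO inhibitor. Over the 10 members, WT vehicle line 2 was the highest library for 6 and among the top 3 for all 10. KO inhibitor line 3 was the highest for 3 and among the top 3 for 9, and WT inhibitor line 3 was among the top 3 for 6.

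**Figure D2:**
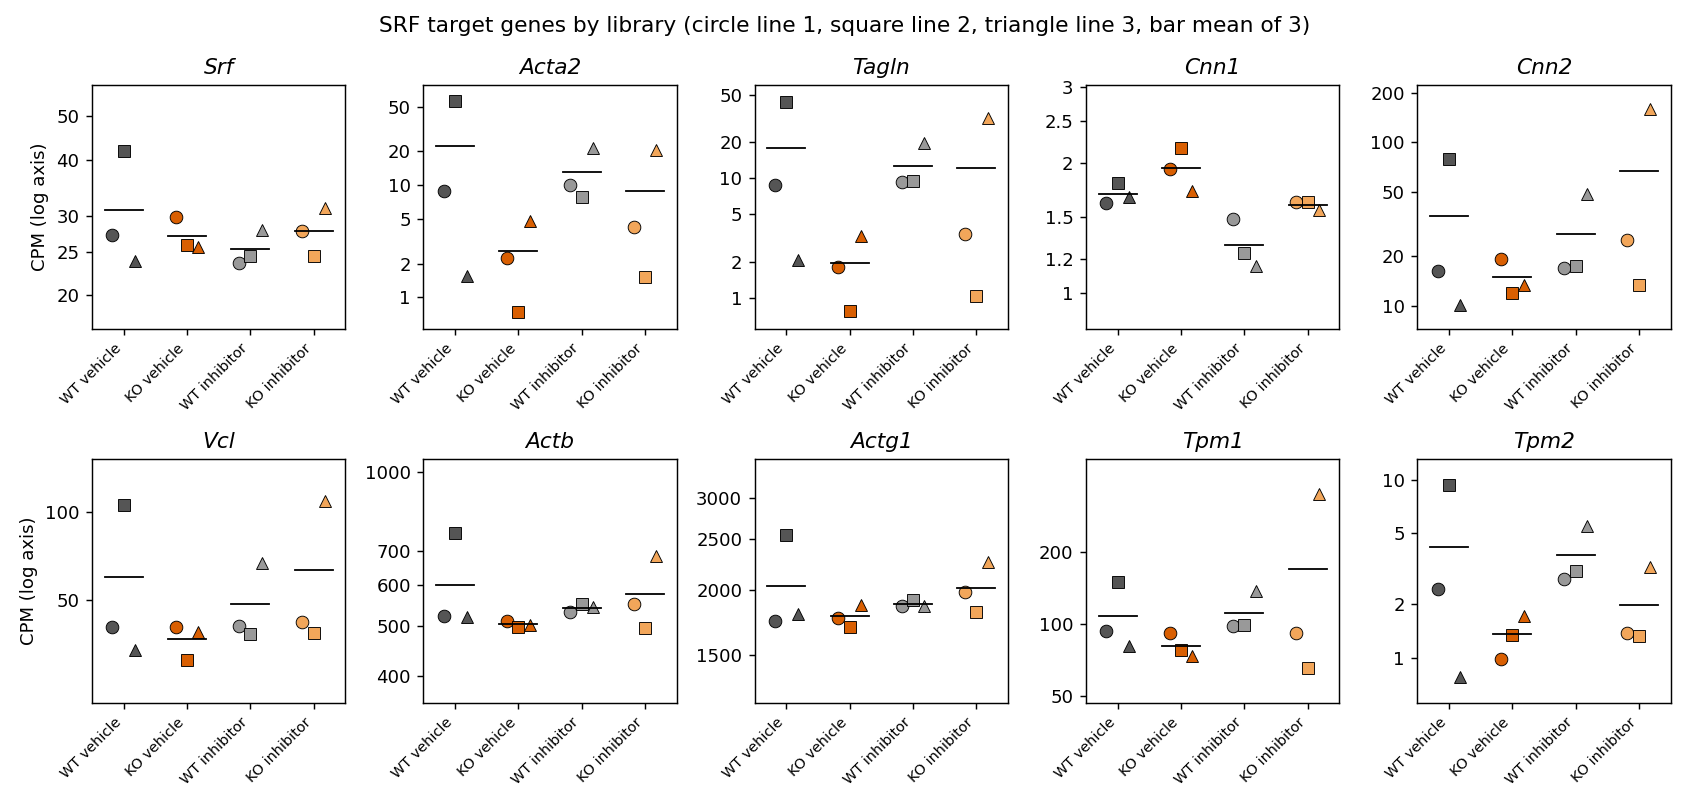
CPM of the 10 genes in each of the 12 libraries on log axes of different ranges, by group, with symbols for the line and a bar at the mean of 3. For Acta2 the square of WT vehicle line 2 sits at 55.9 CPM above the other libraries, while the Cnn1 libraries all sit between 1.16 and 2.16 CPM.

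The first comparison asked whether the set differs between KO and WT neurons left in vehicle. The fitted log2 difference, KO over WT, was below 0 for 9 of 10 members, with a median of -0.56 against -0.01 over all 15443 genes tested. None passed at an adjusted p below 0.05, and neither did any other gene (0% of genes tested; edgeR quasi-likelihood test with Benjamini-Hochberg adjustment). The largest differences were those of Tagln (-3.17 ± 1.35 SE) and Acta2 (-3.09 ± 1.33), the only members with an unadjusted p below 0.05 (0.0409 and 0.0421, adjusted p = 0.999 for each; edgeR), where 1.99% of all genes tested had one. Tpm2 followed at -1.63 ± 0.77, then Cnn2 at -1.24 ± 0.99 and Vcl at -0.71 ± 0.51. Tpm1 (-0.42 ± 0.53), Actb (-0.25 ± 0.18), Srf (-0.19 ± 0.20), Actg1 (-0.19 ± 0.19) and Cnn1 (0.20 ± 0.20) were closer to 0. Actb was the 1 member whose libraries did not overlap between the groups, a property of 12.5% of all genes tested. The mesenchymal markers summed to 37.9 to 114 CPM in KO vehicle and 122 to 1274 CPM in WT vehicle, and all 9 of them had a fitted difference below 0, with a median of -2.85. Without WT vehicle line 2 the members' median was -0.03, Acta2 stood at -1.01, Tagln at -1.44, Tpm2 at -0.25, Vcl at -0.01 and Cnn2 at 0.17, and no member had an unadjusted p below 0.05. KO inhibitor line 3 is not in this comparison but adds to the shared spread. Without it, Tagln and Acta2 had an adjusted p of 0.542 and 0.562 (edgeR). Of 15591 genes then tested, 1336 had an unadjusted p below 0.05.

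Under inhibitor the difference between KO and WT took no common direction in the set. It was above 0 for 7 members and below 0 for 3, with a median of 0.12 against -0.0005 over all genes. No member was called, 0% of all genes were, and no member reached an unadjusted p below 0.05, which 3.5% of all genes did. The differences ran from -0.93 ± 0.76 (SE) in Tpm2 and -0.58 ± 1.22 in Acta2, through -0.08 ± 1.23 in Tagln, 0.09 ± 0.18 in Actb, 0.10 ± 0.19 in Actg1 and 0.14 ± 0.20 in Srf, to 0.60 ± 0.53 in Tpm1 and 1.27 ± 0.99 in Cnn2. Without KO inhibitor line 3 the median was -0.39, with Tagln at -2.52, Acta2 at -2.18, Cnn2 at -0.52 and Tpm1 at -0.50. With all libraries, 7 of the 9 mesenchymal markers lay below 0, at a median of -2.43. Their part in the members' values was not tested. Cnn1 (0.31 ± 0.20, adjusted p = 0.856; edgeR) was the 1 member whose libraries did not overlap, with 1.56 to 1.63 CPM in KO against 1.16 to 1.48 in WT, against 10.5% of all genes.

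The next comparison was of ROCK inhibitor with vehicle in WT neurons. In it 9 of 10 members had a fitted difference below 0, with a median of -0.30 against 0.01 over all genes. None was called (0% of all genes), and none had an unadjusted p below 0.05, against 0.304% of all genes. The members ran from -0.75 ± 1.22 (SE) in Acta2 to 0.05 ± 0.53 in Tpm1, with Tagln at -0.49 ± 1.23, Cnn1 at -0.39 ± 0.20, Cnn2 at -0.35 ± 0.98, Vcl at -0.31 ± 0.51, Srf at -0.29 ± 0.20, Tpm2 at -0.15 ± 0.75, Actb at -0.14 ± 0.18 and Actg1 at -0.11 ± 0.19. The direction turned without WT vehicle line 2: the median was then 0.34, Acta2 stood at 1.29 and Tagln at 1.21. With the cell line as a block, which the labels support because each line gave both libraries, 5 members lay above 0 and 5 below, at a median of -0.02, and 28 genes in place of 47 had an unadjusted p below 0.05. Within lines the WT responses went opposite ways. For Acta2 the log2 ratio of inhibitor to vehicle was 0.18 in line 1, -2.84 in line 2 and 3.77 in line 3, and for Tagln it was 0.07, -2.17 and 3.23. Line 2 held the vehicle library that stood apart and line 3 the inhibitor library that stood apart. Over all genes tested the deviations of the paired libraries from their group means had a correlation of -0.55 in WT line 2 and -0.72 in WT line 3, and the library most like WT vehicle line 2 was WT inhibitor line 3. The line numbers are those of the labels, and whether they are right was not tested, so every ratio within a line depends on them.

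In KO neurons the inhibitor libraries gave 9 of 10 members a fitted difference above 0, with a median of 0.67 against -0.02 over all genes, and again no member was called (0% of all genes). No member had an unadjusted p below 0.05, which 7.05% of all genes had. Tagln stood at 2.61 ± 1.32 (SE), Cnn2 at 2.16 ± 1.02 and Tpm1 at 1.07 ± 0.54, each with an adjusted p of 0.474 (edgeR). Acta2 was at 1.76 ± 1.27, Vcl at 0.79 ± 0.51, Tpm2 at 0.55 ± 0.76, Actb at 0.20 ± 0.18, Actg1 at 0.18 ± 0.19, Srf at 0.04 ± 0.20 and Cnn1 at -0.28 ± 0.20. These values rested largely on 1 library. Without KO inhibitor line 3, which also had the lowest neuronal and the highest astrocyte and progenitor marker sums, the median was 0.07, Tagln stood at 0.16, Acta2 at 0.16, Cnn2 at 0.37 and Tpm1 at -0.04. With the cell line as a block the median was 0.54, and 256 genes in place of 1088 had an unadjusted p below 0.05. By line, Tagln had a log2 ratio of 0.90, 0.42 and 3.26 in KO lines 1 to 3, and Cnn2 0.38, 0.16 and 3.58. Deviations of the paired libraries from their group means had correlations of -0.19, 0.57 and -0.37 in KO lines 1 to 3. These ratios also depend on the line numbers of the labels.

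Cnn1 was the 1 member that lay lower with inhibitor in all 6 lines, as 0.706% of all genes tested did, with log2 ratios of -0.13, -0.54 and -0.53 in WT and -0.26, -0.42 and -0.15 in KO. It had 33 to 56 counts per library, for which counting error alone gives such a ratio an SE of 0.28 to 0.33. Its inhibitor and vehicle libraries did not overlap in WT (1.16 to 1.48 against 1.62 to 1.79 CPM) or in KO (1.56 to 1.63 against 1.73 to 2.16 CPM), where 5.97% and 8.84% of all genes tested had libraries that did not overlap. The fitted differences did not pass (-0.39 ± 0.20 SE in WT, adjusted p = 1.00, and -0.28 ± 0.20 in KO, adjusted p = 0.515; edgeR). They kept their sign when any 1 library was left out, between -0.50 and -0.31 in WT and between -0.36 and -0.20 in KO. Where libraries do not overlap, that sign and the lower value in every line follow. They are therefore no further evidence beside the lack of overlap. No other member was lower or higher with inhibitor in all 6 lines, as 1.09% of all genes were. Acta2, Tagln, Cnn2, Vcl and Actg1 were higher in 5 of 6, with WT line 2 as the exception, and Srf was higher in 2 of 6. The share of all genes higher in 5 of 6 lines was not computed, so these counts are not read as a rise. They depend on the line numbers of the labels. Some ratios were small, such as 0.009 in WT line 1 and 0.06 in KO line 1 for Vcl.

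**Figure D3:**
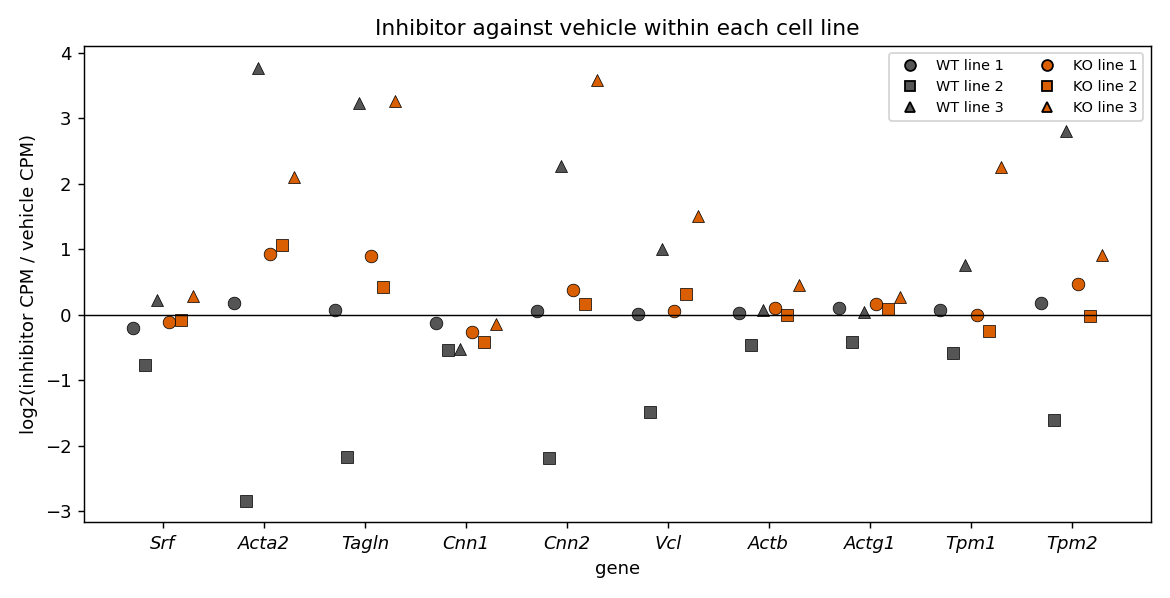
Log2 ratio of inhibitor to vehicle CPM within each of the 6 cell lines for each gene. WT line 2 lies at -2.84 and WT line 3 at 3.77 for Acta2, while all 6 points of Cnn1 lie between -0.54 and -0.13.

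Whether the inhibitor response differs between the genotypes was tested as an interaction. The interaction was above 0 for all 10 members, with a median of 0.86 against -0.01 over all genes, of which 7603 of 15443 lay above 0. No member and no other gene was called (0%), with member adjusted p from 0.808 to 0.878 (edgeR), and no member had an unadjusted p below 0.05, against 1.2% of all genes. The interaction is built from the same 4 groups as the comparisons above and so is no further evidence beside them. Its median was 0.31 without WT vehicle line 2, 0.22 without KO inhibitor line 3 and 0.03 without the 3 libraries that stood apart, when 6 members lay above 0 and 4 below.

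With the vehicle and inhibitor counts of each line summed, 3 KO lines were set against 3 WT lines. The members' median difference was -0.02 against 0.04 over 16090 genes, with 3 members above 0 and 7 below. The median was 0.11 without WT line 2 and -0.45 without KO line 3. None was called (0% of all genes). Of the 9 mesenchymal markers, 7 lay below 0 in the same comparison, with a median of -2.70, and their part in the members' values was not tested. Tpm2 had a difference of -1.19 ± 0.46 (SE), an unadjusted p of 0.0429 and an adjusted p of 0.998 (edgeR), in a comparison where 2.65% of all genes had an unadjusted p below 0.05. Acta2 was at -1.51 ± 0.95 and Tagln at -0.98 ± 1.11, while Srf, Actg1, Actb and Vcl all lay between -0.05 and 0.

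Without the 3 libraries that stood apart, chosen after their values were seen, the members' medians came closer to 0 in all 5 comparisons of the 4 groups: -0.03 for KO against WT in vehicle, 0.02 in inhibitor, 0.11 for inhibitor against vehicle in WT, 0.09 in KO and 0.03 for the interaction. These libraries all lie at the high end of the first principal component, and no library of its low end was left out in this fit. No member was called and none had an unadjusted p below 0.05. The largest differences then left were between KO and WT: Tagln stood at -2.05 ± 0.88 (SE) in inhibitor and -1.43 ± 0.78 in vehicle, Acta2 at -1.60 ± 1.02 and -1.001 ± 0.914, and Tpm2 at -1.06 ± 0.47 and -0.24 ± 0.44. The lowest adjusted p among them was 0.516 (edgeR), for Tpm2 in inhibitor. In the libraries that remained, the 8 mesenchymal markers other than Pdgfra summed to 111 to 378 CPM in WT and 34.4 to 109 CPM in KO. The part of the mesenchymal cells in these differences was not tested.

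**Figure D4:**
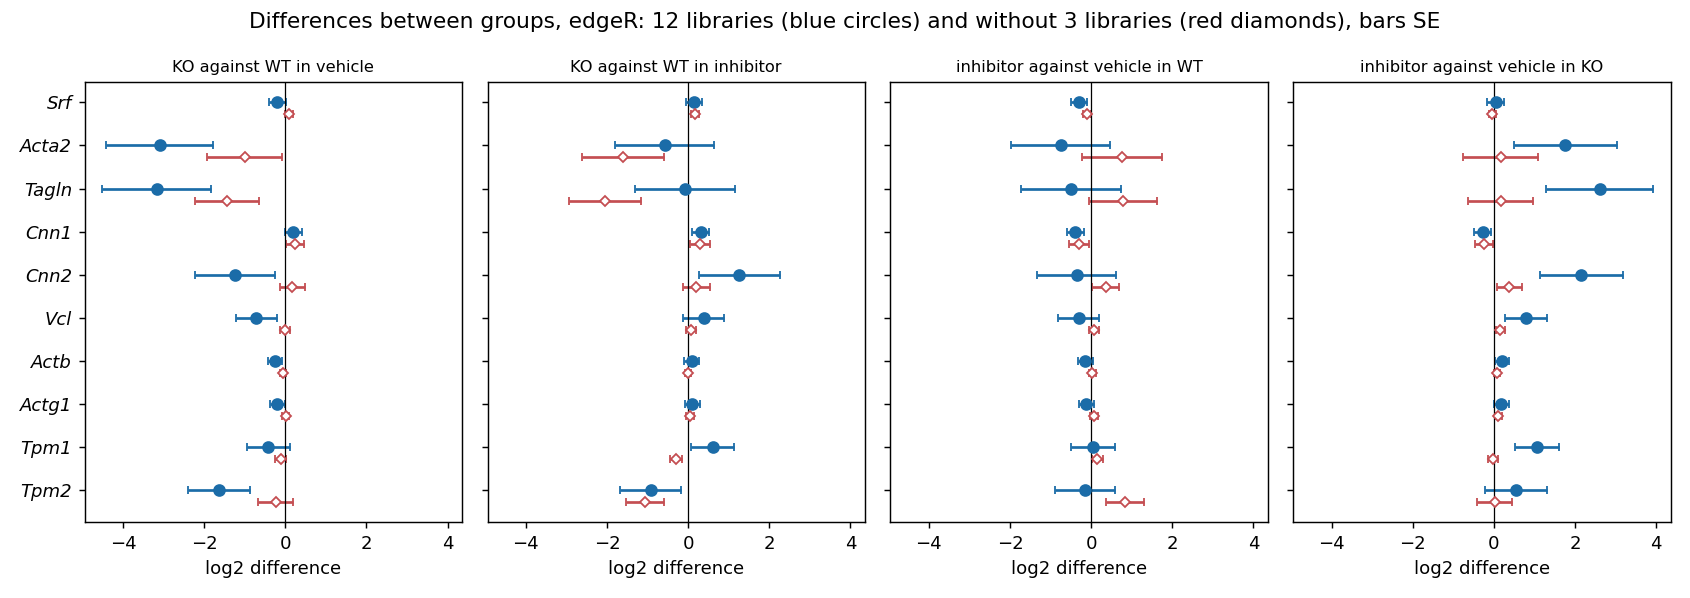
Fitted log2 differences of the 10 genes with SE bars in 4 comparisons, from all 12 libraries (blue) and without the 3 libraries that stood apart (red). In KO, the inhibitor difference of Tagln is 2.61 with all libraries and 0.17 without the 3.

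The regulators of SRF were tested as 8 genes. Mrtfa and Mrtfb, the actin-sensing cofactors, were present in every library at 37.1 to 46.6 and 25.3 to 37.8 CPM. Elk1, a cofactor of the ternary complex family, ran from 27.2 to 37.3 CPM, and its relatives Elk3 and Elk4 from 0.816 to 8.75 and 3.20 to 16.5 CPM. Myocd, the cofactor of cardiac and smooth muscle, was at 0 to 0.793 CPM except in WT vehicle line 2 (2.14) and KO inhibitor line 3 (3.05). Fhl2, a cofactor and SRF target, reached 71.8 CPM in KO inhibitor line 3 and 24.96 and 21.4 CPM in WT vehicle line 2 and WT inhibitor line 3, against 5.62 to 9.14 CPM elsewhere. Scai, a suppressor of these cofactors, was lowest in KO inhibitor line 3 at 38.1 CPM and second lowest in WT vehicle line 2 at 70.6, against up to 136 CPM. None of the 8 was called in any comparison. In vehicle, 3 regulators lay above 0 and 5 below for KO against WT, at a median of -0.22. For inhibitor against vehicle in KO, 5 lay above 0 and 3 below, at a median of 0.62, and Myocd (4.06 ± 1.78 SE), Fhl2 (2.12 ± 0.94) and Elk1 (-0.24 ± 0.10) had an unadjusted p below 0.05 (0.0459, 0.0478 and 0.0331; edgeR, adjusted p = 0.474 for each), against 7.05% of all genes. Without KO inhibitor line 3 none of them had one, and the median was -0.05.

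Of 8 paralogs of the members, 6 passed the filter on low counts. Actc1 (at most 0.223 CPM) and Actg2 (at most 1.32 CPM), muscle actins, did not. Tagln2, the form of transgelin found outside muscle, and Tpm4, a tropomyosin of non-muscle cells, had the same high libraries as their member relatives: Tagln2 reached 321, 120 and 89.8 CPM and Tpm4 521, 174 and 152 CPM in KO inhibitor line 3, WT vehicle line 2 and WT inhibitor line 3. Their lowest values were 3.89 and 24.2 CPM, both in KO vehicle line 2. Cnn3, an acidic calponin of non-muscle cells, ran from 34.7 to 254 CPM, Tpm3 from 4.98 to 18.3 and the skeletal actin Acta1 from 0.235 to 11.4 CPM, each highest in KO inhibitor line 3. Tagln3, the neuronal transgelin, went the other way, with 37.3 CPM in KO inhibitor line 3 and 72.4 to 90.7 CPM in the other libraries. No paralog was called. For inhibitor against vehicle in KO their median was 1.96 with 5 of 6 above 0, and Tagln2 (3.57 ± 1.54 SE), Acta1 (3.08 ± 1.16) and Tpm4 (2.51 ± 1.05) had an unadjusted p below 0.05 (0.043, 0.0248 and 0.0384; edgeR, adjusted p = 0.474 for each), against 7.05% of all genes. Without KO inhibitor line 3, when 7 paralogs passed the filter in place of 6, the median was 0.18 and no paralog had an unadjusted p below 0.05.

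A further 30 SRF targets of the cytoskeleton and adhesion sites were examined by counts, and none was called in any comparison. For KO against WT, 26 of 30 lay below 0 in vehicle (median -0.95) and 25 above 0 in inhibitor (median 0.65). The direction in inhibitor turned without KO inhibitor line 3, with 4 above 0 and 26 below (median -0.92), and the vehicle median was -0.13 without WT vehicle line 2. For inhibitor against vehicle, 12 lay above 0 in WT (median -0.06), but 26 did so without WT vehicle line 2 (median 0.54) and 22 with the line as a block. In KO 25 lay above 0 (median 1.58) and 7 had an unadjusted p below 0.05, against 7.05% of all genes, while without KO inhibitor line 3 the median was 0.06 and none had one. The smooth muscle myosin Myh11, named after its value was seen, was the 1 further target with an unadjusted p below 0.05 for KO against WT in inhibitor (0.0046, adjusted p = 0.856; edgeR), at a log2 difference below 0. That is 1 of 30, where 3.5% of all genes had one. Myh11 had only 6, 13 and 2 counts in KO inhibitor lines 1 to 3 and 27, 21 and 27 in WT inhibitor, so depth limits it. The 6 further targets with the highest mean cRPKM were of a steady and a variable kind. Cfl1 (cofilin 1, which severs actin filaments) ran from 478 to 623 CPM, Cfl2 from 125 to 197, Wdr1 (a cofactor of cofilin) from 178 to 241 and Fhl1 from 134 to 257 CPM. Tmsb4x (thymosin β4, which binds actin monomers) ran from 318 to 909 CPM. Ccn2, a secreted matrix protein, ran from 20.6 CPM in KO vehicle line 2 to 2004 CPM in KO inhibitor line 3, with 565 and 324 CPM in WT vehicle line 2 and WT inhibitor line 3.

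**Figure D5:**
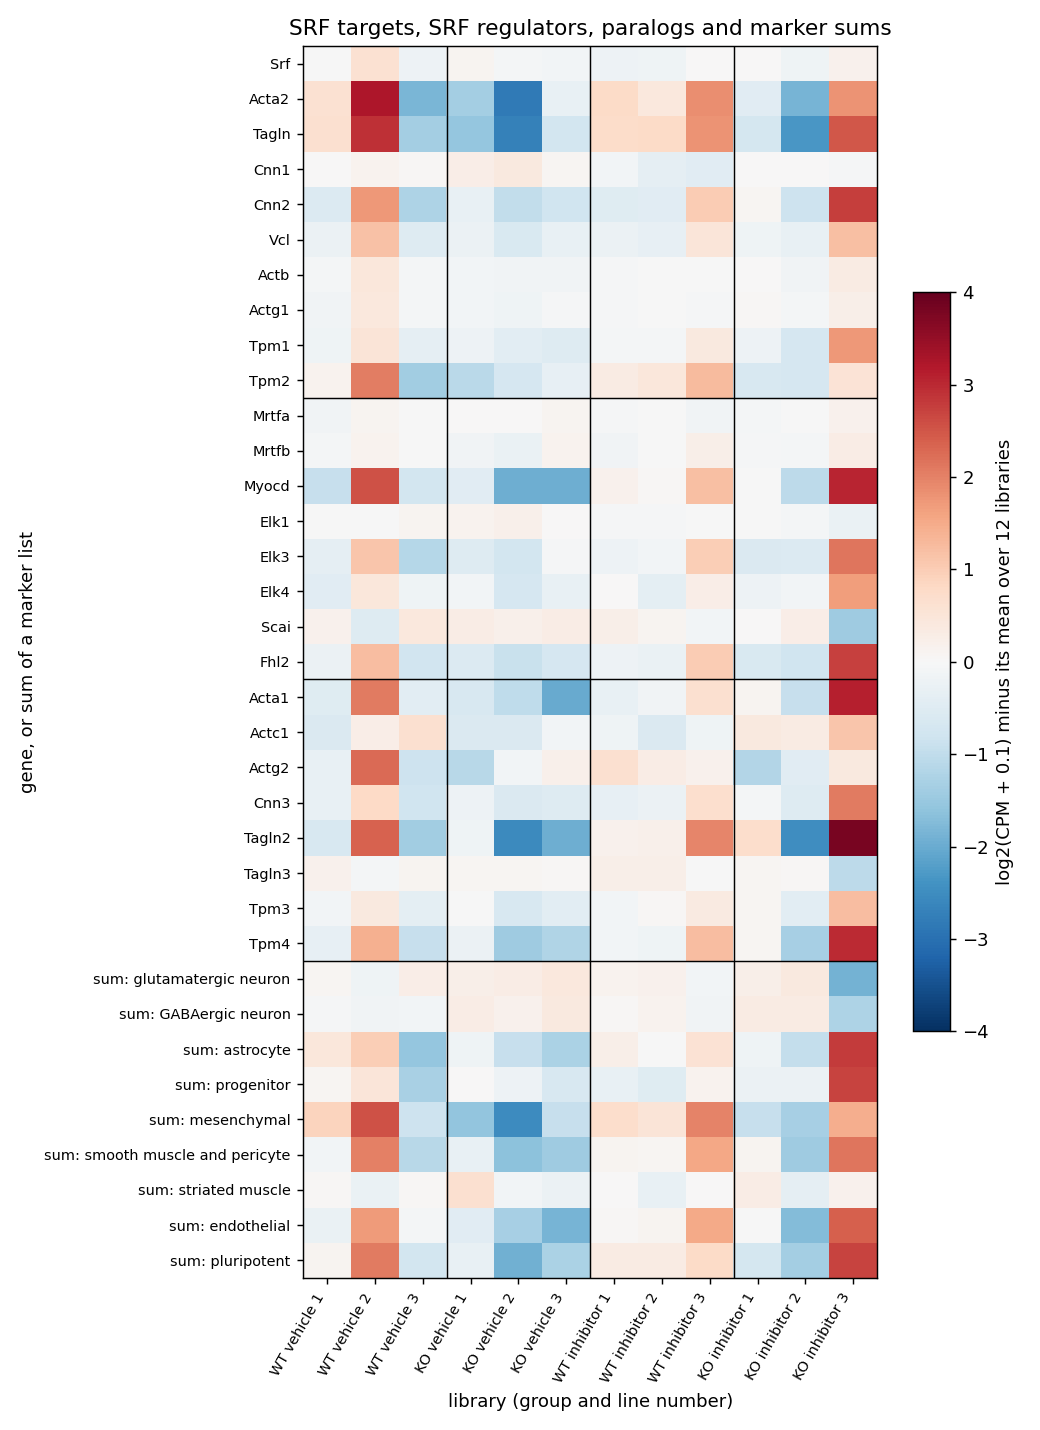
Log2(CPM + 0.1) of members, regulators and paralogs and of the marker sums in each library, minus the mean over 12 libraries. WT vehicle line 2, WT inhibitor line 3 and KO inhibitor line 3 are red for Acta2, Tagln and Cnn2 and for the marker sums of smooth muscle, and pale for Cnn1. The mesenchymal sum of KO inhibitor line 3 is 587 CPM, of which 509 CPM is Pdgfra.

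Genes of all the lists (members, regulators, paralogs, further targets and markers) were left out of a search for genes like 3 of the members. From the other 13334 genes with a mean of at least 1 CPM, those that followed these members most closely over the 12 libraries were taken. Closeness was measured by Spearman rho as a description, in libraries that share their groups. For Srf the closest genes were Tfe3 (rho 0.958), Riok1 (0.951), Lcmt2 (0.937), Fignl2 (0.937) and Kti12 (0.923). For Tagln they were Fn1 (0.993), which encodes fibronectin, followed by Ube2z, Emp1 and Rab20 (0.986 each) and Prss23 (0.979). For Actb they were St3gal1, Pdzk1, Emilin3 and Set (0.972 each) and the Notch target Hes1 (0.965). Without the 3 libraries that stood apart, rho stayed between 0.883 and 0.983 for these 15 genes. No gene was among the closest for more than 1 of these members.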

How the data were processed

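RNA from 12 libraries (polyA-selected and stranded, per the labels' protocols) was deposited as 1 table per library of 36902 Ensembl gene identifiers. Counts are the authors' whole numbers per gene with no normalization. The cRPKM column deposited beside them is RPKM with a correction that no label defines, and it scales by gene length and depth. Build mm10 is named in the submitters' processing notes, and the aligner, the counter and the use of strand in counting are not given in the sources used here. Of these identifiers, 3342 were NA in every library. Symbols matched 33371 of the other 33560 identifiers.

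Counts were tested with edgeR 4.0.16 (TMM, filterByExpr by group, robust quasi-likelihood F test; R 4.3.3), with all 12 libraries in 1 fit of 4 groups, giving 5 comparisons of 15443 genes. Summed counts of each line gave a further comparison of 16090 genes. P-values were adjusted by Benjamini-Hochberg and called below 0.05. CPM uses TMM-scaled totals. The biological coefficient of variation was 0.411 and 0.36. The code was tested on simulated data.

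The members and all gene lists were chosen with earlier results of these data known. Named were all members, regulators and paralogs, the 6 further targets with the highest mean cRPKM, any called list gene and the 5 genes outside all lists most like Srf, Tagln and Actb. Marker lists covered 9 cell types; sums without Pdgfra or without SRF targets were added after seeing the data. Alternatives were DESeq2 1.42.0, RLE factors, library totals, no filter, limma 3.58.1 on log2(cRPKM + 0.1), a replicate block, the groups compared alone, leaving out each library or line, and, added after seeing the data, leaving out 3 libraries. Vehicle and inhibitor libraries of 1 line are paired by the labels. The correlation of their deviations from the group means was 0.41, -0.55 and -0.72 in WT lines 1 to 3 and -0.19, 0.57 and -0.37 in KO lines 1 to 3.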

Additional observations from a re-analysis of the deposited data

How the results depend on the processing

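No member was called under any alternative in the 6 comparisons, and over the 4 comparisons of 2 groups the lowest adjusted p of a member was 0.164 (Cnn2 and Tpm1, inhibitor against vehicle in KO without KO inhibitor line 2). Among all genes, DESeq2 called 11 for KO against WT in vehicle, 18 in inhibitor and 88 over line sums, edgeR without a filter 2 over line sums, and edgeR without the 3 libraries that stood apart 2 in vehicle and 1 in inhibitor. These calls include no member, and the cause was not tested. Without the 3 libraries, fewer libraries were fitted, and the interaction median was 0.028. For that median, leaving out single libraries gave 0.22 to 1.19.

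Some members changed direction, for causes that were not tested. Tagln, KO against WT in inhibitor, was 0.0058 with library totals. For inhibitor against vehicle in WT, Acta2, Tagln, Cnn2 and Tpm2 were 0.32, 0.34, 0.029 and 0.40 with limma on cRPKM and 0.28, 0.28, 0.044 and 0.38 with the replicate block. Without the 3 libraries, KO against WT in vehicle was 0.090 for Srf, 0.18 for Cnn2 and 0.0089 for Actg1, and in inhibitor -0.0086 for Actb and -0.29 for Tpm1. In WT the inhibitor difference was 0.76 for Acta2, 0.78 for Tagln, 0.36 for Cnn2, 0.072 for Vcl, 0.032 for Actb, 0.067 for Actg1 and 0.84 for Tpm2, and in KO -0.037 for Srf and -0.027 for Tpm1.

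Leaving out 1 library at a time gave ranges across 0. For KO against WT in vehicle these were -0.35 to 0.085 (Srf), -1.68 to 0.17 (Cnn2) and -0.29 to 0.0046 (Actg1), and in inhibitor -2.52 to 0.46 (Tagln), -0.52 to 1.95 (Cnn2), -0.27 to 0.68 (Vcl), -0.051 to 0.18 (Actb) and -0.50 to 0.98 (Tpm1). For inhibitor against vehicle in WT they were -1.30 to 1.29 (Acta2), -1.01 to 1.21 (Tagln), -1.03 to 1.03 (Cnn2), -0.61 to 0.36 (Vcl), -0.24 to 0.031 (Actb), -0.21 to 0.056 (Actg1), -0.13 to 0.32 (Tpm1) and -0.65 to 1.20 (Tpm2), and in KO -0.050 to 0.12 (Srf) and -0.039 to 1.44 (Tpm1).

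The replicate block, the cell line for treatment and the number alone for genotype, called 0 genes in every comparison and changed no other call. With it the members' medians were -0.57 for KO against WT in vehicle, 0.12 in inhibitor, -0.02 for the inhibitor in WT, 0.54 in KO, 0.43 for the interaction and -0.02 over line sums. Depth limits Cnn1 and Tpm2, at about 1 to 9 CPM in every library, and also Acta2 and Tagln where they were low. Acta2 and Tagln had 17 and 18 counts in KO vehicle line 2, below the lowest of Tpm2 (24) and Cnn1 (33). The fit without the 3 libraries was not run for line sums.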

Other observations

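Libraries of 1 line were not always the most alike. Over all genes tested, the library most like WT vehicle line 2 was WT inhibitor line 3 and the reverse (r = 0.985), and the one most like KO inhibitor line 3 was WT vehicle line 2 (r = 0.923), a library of the other genotype. KO vehicle line 3 and KO inhibitor line 2, of different lines, were most like each other (r = 0.993). WT vehicle line 1 was most like WT inhibitor line 1 (r = 0.993), and both libraries of KO line 1 were most like each other (r = 0.991). KO vehicle line 2 was most like KO inhibitor line 2, of its own line (r = 0.992). WT inhibitor lines 1 and 2 were most like each other (r = 0.995), and WT vehicle line 3 was most like WT vehicle line 1 (r = 0.990).

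Markers of the remaining cell types were low. The sum of 4 endothelial markers ran from 1.65 CPM to 33.3 CPM and that of 4 pluripotency markers from 0.26 CPM to 8.91 CPM, both highest in KO inhibitor line 3, and 6 striated muscle markers summed to 5.49 to 11.2 CPM. CArG boxes were also found in promoters of other genes of the lists: an exact box in Acta1 and Actc1 of 7 paralogs with an entry, in Fhl2 of 7 regulators and in Fhl1, Filip1l, Lima1 and Myl9 of 26 further targets.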
